A study of Mus musculus with 10 samples.

Results

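The genes described here encode the DNA replication machinery: 36 genes for origin licensing, the replicative helicase and its activators, the polymerases, the sliding clamp with its loader, and the proteins that bind single strands and join fragments. They were listed by function, with earlier results of these data known. Every probe set that the platform annotation gives to a listed symbol or its synonym was taken. One probe set per gene, that with the highest mean over all 10 arrays, carries the results, and the others serve as a check. All 36 genes were on the array with 77 probe sets in all, and all 36 passed the filter on dim signal, among 12251 tested genes of 18193 on the array.

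The samples are splenic B cells of C57BL/6 mice of 12 weeks, either irf4+/+ (5 arrays) or irf4-/- littermates (5 arrays). Irf4 encodes a transcription factor that B cells induce on activation. In both groups non-B cells were removed magnetically, and the remaining cells were stimulated for 3 days in culture with anti-CD40 antibody plus 20 ng/ml IL-4. Whether the 5 arrays per genotype stand for separate animals is not stated in the labels, so each p-value covers only array-to-array spread, which can be technical. How the Irf4 alleles were disrupted is likewise not stated there.

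Replication origins are licensed in G1 phase, when the origin recognition complex, Cdc6 and Cdt1 load the MCM helicase onto DNA. In S phase the kinase Cdc7 with Dbf4, and Cdc45, the GINS complex and Mcm10, turn the helicase on, after which polymerase alpha-primase starts each strand and polymerases delta and epsilon extend it with the clamp Pcna. Resting B cells lie outside the cell cycle, and stimulation through CD40 with IL-4 drives them into division, when E2F transcription factors induce many of these genes.

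Transcripts of the 36 listed genes were lower in Irf4-/- cells by moderate amounts and with few exceptions. As the list was drawn up with earlier results of these data known, its counts are descriptive only. Of 11 remaining subunits of the same complexes, described below, 4 were called lower, 1 higher and 6 were not called (median log2 fold change -0.17). Of the 36 genes, 31 fell, 1 (Rfc2) rose and 4 (Pold1, Pole, Pcna and Fen1) were not called, where 23.9% of all tested genes were called lower and 23.4% higher (limma, Benjamini-Hochberg adjusted p under 0.05 over all tested genes). The median log2 fold change, Irf4-/- minus Irf4+/+, was -0.47 over the 36 genes and 0.00428 over all tested genes. The range ran from -0.83 for Mcm6 to 0.27 for Rfc2. Of the 31 genes that fell, 29 were at least 1.2-fold lower and 17 at least 1.4-fold lower, against 20.2% and 11.2% of all tested genes. For the same 31 genes every Irf4-/- array lay below every Irf4+/+ array, which held for 18.3% of tested genes. In these mixed cultures, fewer cells in S phase and less of each transcript per cell cannot be told apart.

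**Figure D1:**
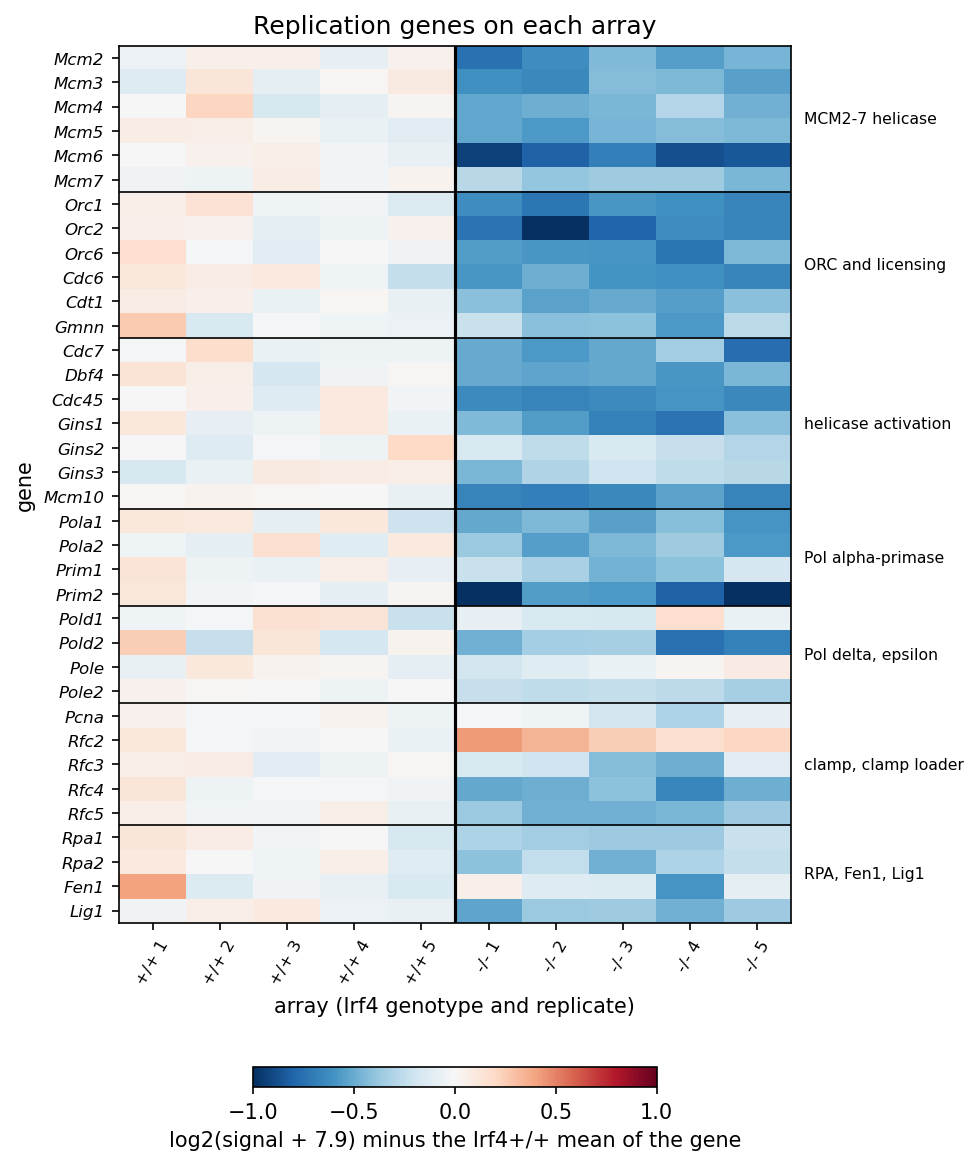
Each row is a gene and each column an array (genotype and replicate). Colour gives log2(signal + 7.9) minus the mean of the gene in Irf4+/+ samples, with the scale ending at -1 and 1. The Irf4-/- columns are blue for nearly all rows, Rfc2 is red in all 5 of them, and Pole, Pold1 and Pcna are pale.

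The shift was of like size on each Irf4-/- array. The median over the 36 genes, taken per array relative to the Irf4+/+ mean on the log2 scale, was -0.47, -0.48, -0.45, -0.47 and -0.45 in Irf4-/- replicates 1 to 5. In Irf4+/+ replicates 1 to 5 it was 0.06, 0.02, -0.02, -0.03 and -0.06. Between 33 and 35 of the 36 genes lay below their Irf4+/+ mean on each Irf4-/- array.

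Other features of the arrays differed between the genotypes as well, and their part in the result was not tested. Irf4 itself fell 1.35-fold, from 3761 ± 211 to 2792 ± 128 signal units (SD, n = 5; limma adjusted p = 5.01e-06), and without knowing which part was disrupted, this signal does not check the genotype. The 18S ribosomal RNA control rose from 40.7 ± 16.2 to 141.6 ± 46.5 (SD, n = 5; p = 0.00794 by exact permutation, which is the minimum for this design, and adjusted p = 0.0317 over 4 array measures), and the Actb control ratio of 3′ to 5′ signal measured 1.15 ± 0.0259 in Irf4+/+ and 1.10 ± 0.0227 in Irf4-/- samples (p = 0.0238 by exact permutation, adjusted to 0.0476). The array medians (adjusted p = 0.233, exact permutation test) and the Gapdh control ratio (adjusted p = 0.873, exact permutation test) did not pass. All 7 measured B cell markers were called higher in Irf4-/- samples, with a summed signal of 23836 to 26412 in Irf4+/+ and 43910 to 48073 in Irf4-/- samples. All 8 measured natural killer cell markers were called higher, summing to 1273 to 1542 and 11456 to 15919. Of 9 macrophage markers 4 were called higher, summing to 452.3 to 514.3 and 1525 to 1893, with Csf1r, Fcgr1 and Mrc1 not called and Cd14 and Itgam under the dim filter. Of 7 granulocyte markers 3 were called higher, summing to 130.3 to 209.8 and 640.8 to 1075, with Elane and Mpo not called and Camp and Ltf under the filter. Of the 7 T cell markers on the array Thy1 was called higher and Cd8a was not called, the list sums ran from 1061 to 1432 and from 4560 to 5612, and Cd3d, Cd3e, Cd3g, Cd4 and Cd8b1 were under the filter. Of the 4 erythroid markers on the array none was called by limma (with 1 tested, Epor at an adjusted p of 0.728, none had an unadjusted p under 0.05), the sums were 73.4 to 117.2 and 27.0 to 134.4, and Hba-a1, Alas2 and Klf1 were under the filter. None of the 42 markers on the array was at 0 on any array.

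Because the genes moved together, their promoters were read for the short words that cell-cycle factors are known to bind. RefSeq windows on GRCm38.p6, from 250 bases before to 50 bases after a transcript start, were matched for 29 of the 36 genes (36 windows, since some genes have several starts). An E2F word (TTTCCCGC, TTTGGCGC, TTTCGCGC or TTTGCCGC, on either strand, overlaps allowed) stood in windows of 13 of the 29 genes: Mcm3, Mcm5, Mcm6, Mcm7, Orc1, Cdc6, Cdt1, Gins3, Pola1, Pold1, Pole2, Rfc3 and Lig1. Counted by window it was 36.1%, against 2.26% of 32851 windows of all genes and 3.90% of the windows of tested genes. The CCAAT box (CCAAT on either strand), bound by NF-Y, stood in 55.6% of these windows against 37.4% of all and 37.5% of tested-gene windows. The CHR word (TTTGAA) is bound by complexes that repress cell-cycle genes in resting cells. It stood in 22.2% against 17.9% of all and 12.3% of tested-gene windows. The E-box of MYC (CACGTG) stood in 11.1% against 7.15% of all and 9.7% of tested-gene windows. Of the motifs of interferon regulatory factors, the interferon-stimulated response element stood in 5.56% against 3.44% of all and 3.03% of tested-gene windows. The ETS-IRF composite element stood in 0 of the 36 windows against 2.72% of all and 2.38% of tested-gene windows. A word in a window is a match of letters and was not tested for binding.

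The median log2 fold change was -0.49 for the 13 genes with the word, of which 12 were called lower, and -0.51 for the 16 without it, of which 14 were called lower. This difference was not tested. Below are the 250 bases before the start, 5′ to 3′, for the genes with the smallest p among those lower (Mcm6, Mcm10 and Orc2) and for Pold1, which was not called. Rfc2 and Pole, the other genes with the highest fold changes, have no entry. Mcm5 is added, after the values were seen, for its overlapping pair of E2F words. Capitals mark E2F words and CCAAT boxes on either strand.
Mcm6: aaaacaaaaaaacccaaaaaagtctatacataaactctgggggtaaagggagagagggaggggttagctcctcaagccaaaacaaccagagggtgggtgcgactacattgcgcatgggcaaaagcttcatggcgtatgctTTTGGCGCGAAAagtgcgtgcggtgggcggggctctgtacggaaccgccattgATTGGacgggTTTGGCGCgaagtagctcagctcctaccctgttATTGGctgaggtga
Mcm10: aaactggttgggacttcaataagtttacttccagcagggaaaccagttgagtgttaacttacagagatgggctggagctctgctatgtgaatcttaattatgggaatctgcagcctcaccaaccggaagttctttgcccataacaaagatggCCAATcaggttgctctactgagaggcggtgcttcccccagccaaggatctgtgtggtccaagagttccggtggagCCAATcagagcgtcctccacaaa
Orc2: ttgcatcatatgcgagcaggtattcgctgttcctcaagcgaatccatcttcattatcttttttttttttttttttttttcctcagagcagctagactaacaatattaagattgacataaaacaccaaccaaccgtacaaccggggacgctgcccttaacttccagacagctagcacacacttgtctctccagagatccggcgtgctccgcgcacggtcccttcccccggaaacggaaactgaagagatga
Pold1: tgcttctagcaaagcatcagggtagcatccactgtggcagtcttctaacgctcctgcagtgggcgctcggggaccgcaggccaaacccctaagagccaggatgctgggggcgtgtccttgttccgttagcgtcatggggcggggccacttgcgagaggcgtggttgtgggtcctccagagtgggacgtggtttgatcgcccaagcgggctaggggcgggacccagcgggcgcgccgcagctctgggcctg
Mcm5: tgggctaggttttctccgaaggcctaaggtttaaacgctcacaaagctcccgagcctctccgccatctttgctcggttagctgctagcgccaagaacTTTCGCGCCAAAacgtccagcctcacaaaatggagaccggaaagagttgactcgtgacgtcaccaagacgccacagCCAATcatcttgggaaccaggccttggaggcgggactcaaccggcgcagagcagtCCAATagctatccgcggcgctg
These are Mcm6 at chr1:128359706-128359955 on the minus strand, Mcm10 at chr2:5012792-5013041 on the minus strand, Orc2 at chr1:58505110-58505359 on the minus strand, Pold1 at chr7:44548816-44549065 on the minus strand and Mcm5 at chr8:75109259-75109508 on the plus strand. In Mcm6 an E2F word began 110 bases before the start, overlapped one on the opposite strand at 106, and a further one stood at 47, each stretch followed within the sequence by a CCAAT box. Mcm5 had its overlapping pair at 153 and 149 bases before the start. Mcm10 carried CCAAT boxes and no E2F word here, and Orc2, whose 5′-most start is shown, carried neither word in these 250 bases. Orc2 did have a CCAAT box at base 21 after this start, outside the printed stretch. Its other window had one 45 bases before the start of that window. A match to the interferon-stimulated response element stood 22 bases before the printed Orc2 start and is not in capitals. The E2F word of Pold1 lies after its start, outside the printed stretch.

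All 6 genes of the MCM helicase fell, with a median log2 fold change of -0.51. Mcm2 to Mcm7 form the ring that unwinds DNA at the fork, and each of them was lower on all Irf4-/- arrays. Mcm6 fell furthest of the 36 genes. Its signal was 5311, 5473, 5546, 5211 and 5054 in Irf4+/+ replicates 1 to 5 and 2784, 3031, 3306, 2891 and 2953 in Irf4-/- replicates 1 to 5. The groups are far apart, with the highest Irf4-/- array well under the lowest Irf4+/+ array, and the fall was 1.78-fold (log2 fold change -0.83, SE 0.0535, limma adjusted p = 2.03e-09). Mcm2 gave 1806, 1948, 1946, 1781 and 1943 against 1122, 1223, 1383, 1280.4 and 1363, a 1.48-fold fall (adjusted p = 1.42e-06 in limma). Mcm3 fell 1.45-fold, Mcm5 to 71.2% of its Irf4+/+ mean, Mcm4 1.36-fold and Mcm7 1.29-fold, with limma adjusted p from 7.48e-07 (Mcm5) to 4.16e-05 (Mcm4). Mcm7 was the least changed, at 7455 ± 278 and 5785 ± 266 (SD, n = 5).

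The origin recognition and licensing genes fell in all 6 cases, with a median log2 fold change of -0.59. Orc1, Orc2 and Orc6 are subunits of the complex that marks origins. Its subunits Orc3, Orc4 and Orc5, counted in a further list below, were not called. Their log2 fold changes were -0.17, -0.09 and 0.14 (limma adjusted p = 0.0706, 0.244 and 0.276). Orc2 gave 993, 986, 902, 925 and 988 in Irf4+/+ and 572, 477, 549, 620.2 and 599 in Irf4-/- samples. All Irf4-/- arrays were lower, and the fall was 1.70-fold (log2 fold change -0.76, SE 0.072, limma adjusted p = 1.99e-07). Orc1 fell 1.56-fold, from 331.4 ± 25.0 to 209.2 ± 8.21, and Orc6 fell to 66.6% of its Irf4+/+ mean, from 1352 ± 102 to 900.2 ± 63.5 (SD, n = 5). Cdc6, which helps load the helicase, fell to 66.1%, from 1233 ± 121 to 814.9 ± 37.2. Cdt1, the loader that is destroyed once S phase starts, fell to 71.4%, from 3045 ± 140 to 2173 ± 96.4. Gmnn encodes geminin, the inhibitor of Cdt1, and it fell too, 1.30-fold (log2 fold change -0.38, limma adjusted p = 0.000875). Its signal was 2605, 1952, 2149, 2103 and 2078 in Irf4+/+ and 1860.3, 1619, 1630, 1455 and 1792 in Irf4-/- samples. The loader and its inhibitor were thus both lower, and their ratio is given with the other ratios below.

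Genes that activate the loaded helicase fell in all 7 cases, with a median log2 fold change of -0.54. Cdc45, the helicase partner that joins at firing, gave 786, 812, 715, 839 and 769 in Irf4+/+ and 500.3, 489.8, 500.2, 519 and 499.5 in Irf4-/- samples. The Irf4-/- arrays lay close together and below the others, and the fall was 1.55-fold (log2 fold change -0.63, SE 0.0606, limma adjusted p = 2.33e-07). With the mean of its probe sets the log2 fold change of Cdc45 was -0.41 (limma adjusted p = 0.00489). Mcm10, an initiation factor, gave 916, 932, 923, 910.5 and 863 against 568, 564, 578, 624 and 569, a 1.56-fold fall (adjusted p = 9.29e-08 in limma). It was not called without probe sets of suffix _a, _s or _x (-0.31, limma adjusted p = 0.144). The probe set then used is dim, at 78.0 ± 14.0 in Irf4+/+ samples (SD, n = 5). Both subunits of the S phase kinase fell: the catalytic subunit Cdc7 by 1.45-fold (598.2 ± 44.9 to 409.7 ± 43.3) and its activator Dbf4 by 1.43-fold (1508 ± 118 to 1050.0 ± 32.6; SD, n = 5). The GINS complex completes the active helicase. Gins1 fell 1.48-fold, from 494.8 ± 33.3 to 332.4 ± 32.4, but was not called with the mean of its probe sets (-0.07, limma adjusted p = 0.726). Gins3 fell 1.23-fold (225.8 ± 17.4 to 182.2 ± 12.6) and Gins2 1.16-fold (777.6 ± 68.6 to 665.8 ± 28.9; limma adjusted p = 0.0134).

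Polymerase alpha-primase, which lays down the primers, fell in all 4 subunits, with a median log2 fold change of -0.48. Prim2, the large primase subunit, gave 1057, 958, 971, 911 and 993 in Irf4+/+ and 472, 661, 653, 553 and 454 in Irf4-/- samples. The Irf4-/- arrays were spread more widely than the Irf4+/+ arrays but all lay below them, and the fall was 1.76-fold (log2 fold change -0.81, SE 0.098, limma adjusted p = 3.23e-06). The catalytic primase subunit Prim1 fell 1.25-fold (2042 ± 133 to 1636 ± 145), the catalytic polymerase subunit Pola1 1.42-fold (785.9 ± 78.4 to 549.8 ± 25.8) and the accessory subunit Pola2 1.38-fold (591.7 ± 52.0 to 427.2 ± 30.6; SD, n = 5).

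**Figure D2:**
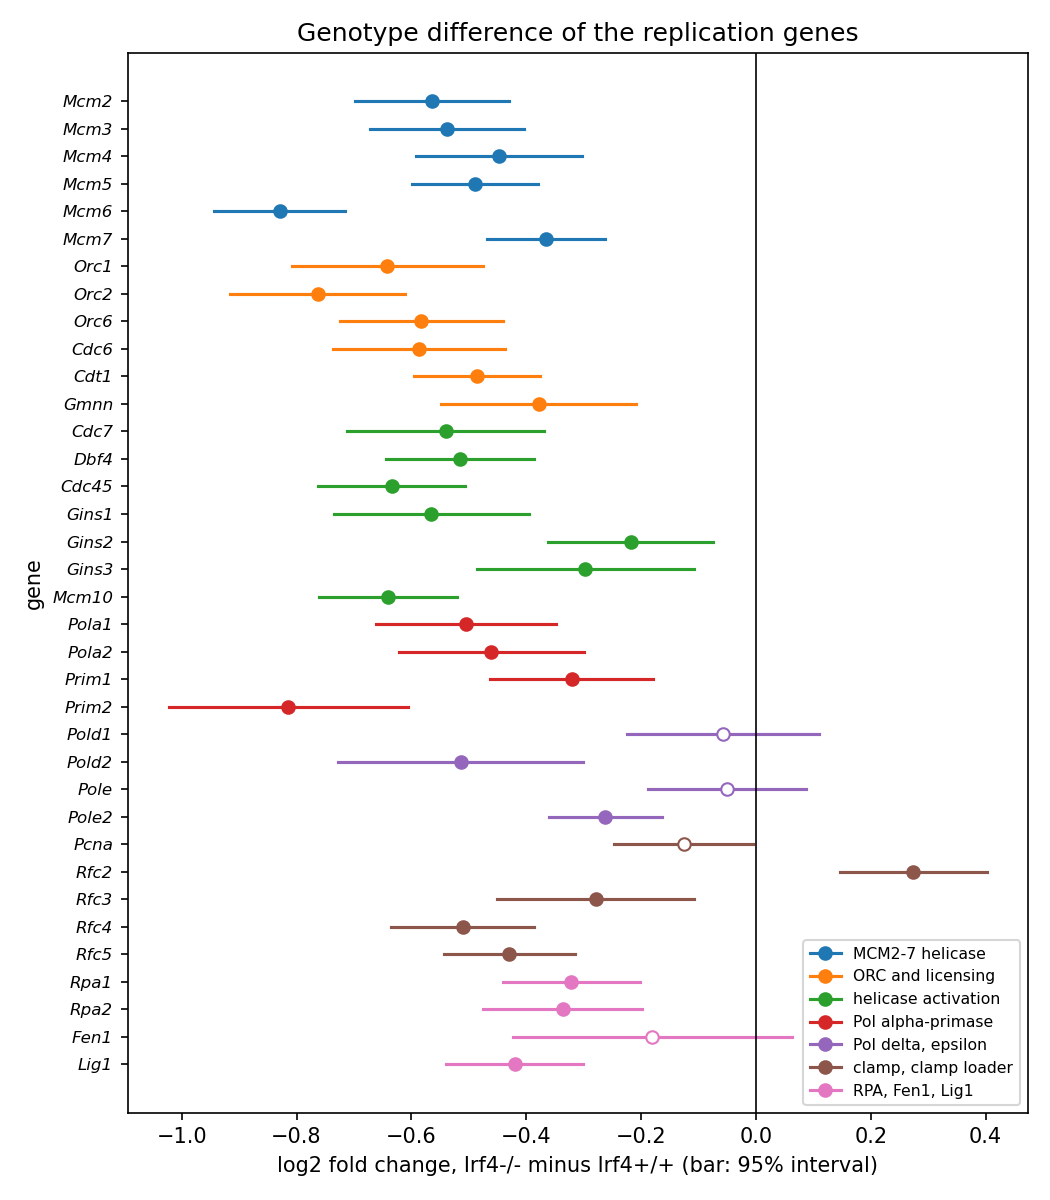
Points give the log2 fold change of each gene, Irf4-/- minus Irf4+/+, with its 95% interval from limma (5 arrays per genotype), coloured by role. Open points are the 4 genes not called. Mcm6 and Prim2 lie furthest left at -0.83 and -0.81, and Rfc2 stands alone on the right at 0.27.

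Of the subunits of polymerases delta and epsilon, the accessory Pold2 and Pole2 were called lower and the catalytic Pold1 and Pole were not called. Pold1, which carries the polymerase site of delta, gave 1293, 1315, 1482, 1455 and 1140 in Irf4+/+ and 1257, 1199.8, 1193, 1494 and 1269 in Irf4-/- samples. The groups overlap, and the log2 fold change was -0.06 (95% interval -0.23 to 0.11, limma adjusted p = 0.587). Pold1 was called lower without probe sets of suffix _a, _s or _x (-0.24, limma adjusted p = 0.00537). Pole, the catalytic subunit of epsilon, was 1030.0 ± 59.9 and 995.4 ± 75.2 (SD, n = 5), with a log2 fold change of -0.05 (95% interval -0.19 to 0.09, limma adjusted p = 0.566). The accessory subunit Pold2 fell 1.43-fold, from 1202 ± 168 to 838.1 ± 109 (limma adjusted p = 0.000441). The accessory subunit Pole2 fell to 83.3%, from 2415 ± 59.2 to 2012 ± 54.8 (limma adjusted p = 0.000179), but with the mean of its probe sets it was called higher (log2 fold change 0.18, limma adjusted p = 0.0392).

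The clamp loader was divided in direction. Rfc2 to Rfc5 are small subunits of the same complex, which opens the clamp and sets it on DNA. Rfc2 gave 1715, 1558, 1552, 1587 and 1509 in Irf4+/+ and 2125, 2004, 1873, 1769 and 1826 in Irf4-/- samples. All Irf4-/- arrays were higher, a 1.21-fold rise (log2 fold change 0.27, SE 0.0601, limma adjusted p = 0.00121). Rfc4 went the other way, with 1722, 1527, 1576, 1564 and 1550.3 against 1113, 1129, 1191, 1004 and 1126, a 1.42-fold fall (limma adjusted p = 1.81e-06). Rfc5 fell 1.35-fold (1575 ± 67.6 to 1168 ± 48.8) and Rfc3 1.21-fold (638.8 ± 34.6 to 527.5 ± 62.1; SD, n = 5). The clamp itself, Pcna, gave 11680, 11195, 11220, 11616 and 10909 in Irf4+/+ and 11223, 10984, 9978, 9116 and 10709 in Irf4-/- samples. These groups overlap, and the log2 fold change was -0.13 (95% interval -0.25 to -0.01, limma adjusted p = 0.0817). Pcna was called lower without Irf4-/- replicate 1 (-0.15, adjusted p = 0.0415), with quantile normalization (-0.22, adjusted p = 5.67e-05) and with each array centred on its median (-0.16, adjusted p = 0.0477), all in limma. Without Irf4-/- replicate 4 its log2 fold change was -0.08 (limma adjusted p = 0.170).

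Among the genes for single strands and fragment joining, 3 of 4 fell. Rpa1 and Rpa2 encode subunits of the protein that coats single-stranded DNA, and they fell 1.25-fold (7925 ± 588 to 6329 ± 266) and 1.26-fold (1162 ± 70.5 to 919.2 ± 67.3; SD, n = 5). Lig1, the ligase that seals fragments on the lagging strand, gave 2062, 2203, 2257, 2026 and 2008 in Irf4+/+ and 1459, 1631, 1644, 1506 and 1638 in Irf4-/- samples, a 1.34-fold fall (limma adjusted p = 1.08e-05). Fen1, the nuclease that trims those fragments, gave 7583, 5205, 5570.4, 5418 and 5141 against 5933, 5235, 5204, 3791 and 5338. One Irf4+/+ array was high, 1 Irf4-/- array was low, and the groups overlap (log2 fold change -0.18, 95% interval -0.42 to 0.06, limma adjusted p = 0.219). The log2 fold change of Fen1 was -0.08 without either of these arrays in turn (limma adjusted p = 0.549 and 0.539). These values are from its brightest probe set. The second Fen1 probe set was called lower, from 2466 ± 80.3 to 2045 ± 54.6 (limma adjusted p = 0.00026, SD with n = 5).

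Differences between partners in a complex were described by the log2 ratio within each array, for 8 ratios chosen after the values were seen. Exact two-sided permutation tests were used (5 against 5 arrays), Benjamini-Hochberg adjusted over the 8. This adjustment does not cover the choice of ratios from the same arrays, so the p-values are descriptive only. Mcm6 fell relative to the mean of the other MCM genes, with a difference of -0.35 (SE 0.0498, adjusted p = 0.0317, exact permutation test; no overlap). Rfc2 rose relative to the mean of Rfc3, Rfc4 and Rfc5 by 0.68 (SE 0.0426, adjusted p = 0.0317, exact permutation test; no overlap). As Rfc2 was higher and Rfc3, Rfc4 and Rfc5 lower on every Irf4-/- array, that outcome was fixed in advance. Prim2 fell relative to Prim1, each read on its brightest probe set, with a difference of -0.49 (SE 0.168, adjusted p = 0.0423, exact permutation test). The size of this gap depended on the probe set. The further Prim1 probe set had a log2 fold change of -0.53. Those of Prim2 had -0.62 and -0.87, the latter dim at 58.5 ± 20.9 in Irf4+/+ samples (SD, n = 5). With the mean of probe sets Prim1 gave -0.42 and Prim2 -0.77. The ratio was not tested on these values. Pole2, read on its brighter probe set, fell relative to Pole, with a difference of -0.21 (SE 0.0772, adjusted p = 0.0476, exact permutation test). The direction of Pole2 turns with the mean of its probe sets, for which the ratio was not tested. Pold2 against Pold1 gave -0.46 (SE 0.183, adjusted p = 0.0635, exact permutation test) and Gins1 against Gins2 and Gins3 gave -0.31 (SE 0.106, adjusted p = 0.0508, exact permutation test), which did not pass. Cdt1 against its inhibitor Gmnn gave -0.11 (SE 0.0747, adjusted p = 0.209, exact permutation test), and Dbf4 against Cdc7 gave 0.02 (SE 0.0999, adjusted p = 0.817, exact permutation test).

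The further probe sets mostly bore the same sign. There were 38 further probe sets above the filter, for 27 of the genes, and 35 of them had the sign of the one used. Of the 38, 26 were called lower, 2 higher and 10 were not called, where 21.4% of all 22533 probe sets above the filter were called lower and 21.1% higher (limma over all probe sets). Both further Rfc2 probe sets were above Irf4+/+ levels: 1 was called (511.5 ± 70.2 to 684 ± 97.3, adjusted p = 0.00378) and 1 was not (300.8 ± 32.2 to 346 ± 7.32, adjusted p = 0.0546). The second Mcm6 probe set fell from 3437 ± 103 to 1833 ± 143, to 53.3% of the Irf4+/+ level (SD, n = 5; limma adjusted p = 2.25e-09). Pole2 was split: its second, dimmer probe set rose from 129.3 ± 14.996 to 203.7 ± 31.7 (limma adjusted p = 0.000488), and with the mean of its probe sets the gene was called higher (log2 fold change 0.18, adjusted p = 0.0392), so its direction rests on the brighter probe set.

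Some calls and sizes depended on the probe set. The second Fen1 probe set fell from 2466 ± 80.3 to 2045 ± 54.6 (SD, n = 5; limma adjusted p = 0.00026), and the mean of its probe sets was called lower (-0.23, adjusted p = 0.0123). The second Pold1 probe set fell from 815.7 ± 59.1 to 686.9 ± 35.1 (SD, n = 5; limma adjusted p = 0.00709). Gins1 was not called with the mean of its probe sets (-0.07, limma adjusted p = 0.726), which includes one at 29.1 ± 12.0 signal units in Irf4+/+ samples. Mcm10 was not called without probe sets of suffix _a, _s or _x (-0.31, limma adjusted p = 0.144), where the brightest one left is at 78.0 ± 14.0 in Irf4+/+ samples. For other called genes log2 fold changes moved by over 1.5 times, with the call kept, for Cdt1 (-0.20), Gins2 (-0.36) and Mcm3 (-0.35) without those suffixes and for Dbf4 (-0.26) and Cdc45 (-0.41) with the mean of probe sets.

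**Figure D3:**
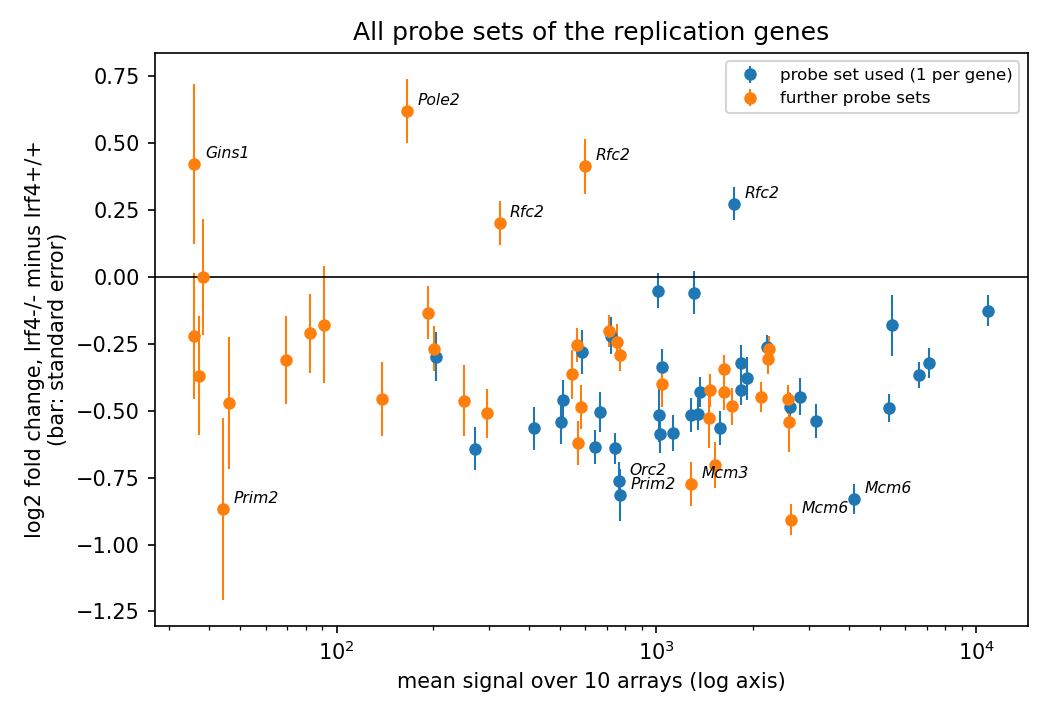
Each point is a probe set above the filter, with its mean signal over 10 arrays on a log axis and its log2 fold change, Irf4-/- minus Irf4+/+ (bar: standard error). Of the 38 further probe sets (orange) 35 share the sign of the one used for the gene (blue), and those above 0 belong to Rfc2, Pole2, Gins1 and, at the line, Dbf4.

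A further list of replication genes was drawn up by function, also with earlier results of these data known. Of 46 measured genes 29 fell, 2 rose and 15 were not called, with a median log2 fold change of -0.33. Whether this list differed from the 36 genes was not tested. Of 11 remaining subunits of the same complexes 4 were called lower, 1 higher and 6 were not called, where 23.9% of all tested genes were called lower. Gins4 fell 1.19-fold (850.6 ± 35.2 to 713.1 ± 46.3) and Rfc1, the large clamp loader subunit, 1.17-fold (929.6 ± 75.3 to 793.7 ± 31.1; SD, n = 5). Pold3 (log2 fold change -0.20, limma adjusted p = 0.0908) and Rpa3 (-0.12, limma adjusted p = 0.181) were not called. Pold4, the smallest subunit of polymerase delta, rose 2.97-fold. Its signal was 684.5, 638.5, 805.8, 734.5 and 740.8 in Irf4+/+ and 2474, 2243, 2062, 1874 and 2151 in Irf4-/- samples (limma adjusted p = 8.11e-11). The groups are far apart, in the direction opposite to Pold2, and the array has 1 probe set for this gene.

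Genes for fork protection, the checkpoint and initiation fell in 9 of 11 cases. Tipin, a fork protection factor, gave 3648 ± 175 and 2066 ± 98.8, a 1.76-fold fall (SD, n = 5; limma adjusted p = 1.99e-09), and Wdhd1, which ties polymerase alpha to the helicase, fell 1.58-fold (1216 ± 81.6 to 766.2 ± 25.6). Nucleases and topoisomerases fell in 6 of 7 cases, and ubiquitin ligase genes of the licensing control in 4 of 6, with Ddb1 lower by a log2 fold change of -0.48 (1996 ± 25.3 to 1425 ± 26.1). In chromatin assembly 4 of 7 fell and 1 rose. The one that rose was Uhrf1, which brings the maintenance DNA methyltransferase to new DNA, at 2812 ± 278 and 3306 ± 126 (1.18-fold; SD, n = 5; limma adjusted p = 0.00651), named after its values were seen. Of 4 genes for alternative clamp loaders 2 fell.

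**Figure D4:**
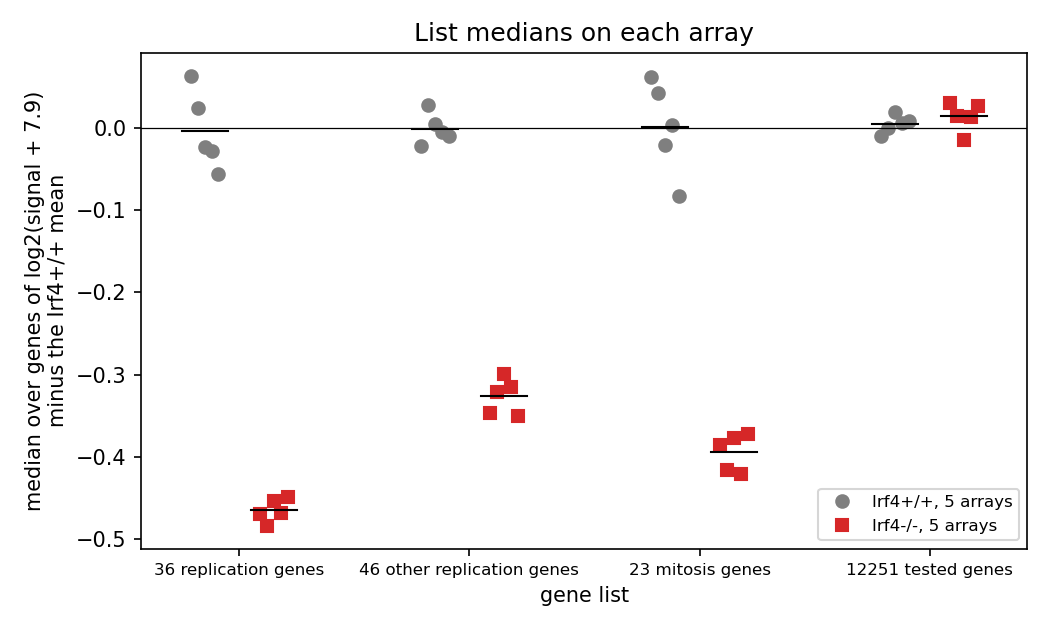
Points give, for each array, the median over a list of log2(signal + 7.9) minus the Irf4+/+ mean of the gene (5 arrays per genotype, bar: mean of the arrays). The 36 replication genes lie between -0.48 and -0.45 on the Irf4-/- arrays, below the other lists plotted, and the median of all tested genes lies between -0.02 and 0.03.

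Genes that act before and after the fork were mostly lower too. All 7 measured genes of a list for deoxynucleotide supply fell (median log2 fold change -0.53). One of them, Slbp, encodes the histone mRNA stem-loop binding protein instead and fell by 0.26 on the log2 scale (limma adjusted p = 0.000115). The others included Dut, which removes dUTP (1.74-fold lower, 1933 ± 152 to 1107 ± 75.2), Tyms, the thymidylate synthase (1.81-fold, 257.3 ± 29.8 to 138.7 ± 17.5), Dctpp1 (1.72-fold, 1015 ± 151 to 584.5 ± 80.7) and Rrm1, a subunit of ribonucleotide reductase (1.44-fold, 4719 ± 416 to 3261 ± 244; SD, n = 5). Of 10 genes of S phase entry 6 fell, 1 rose and 3 were not called (median -0.30). The genes not called were E2f1 (log2 fold change -0.19, limma adjusted p = 0.120), Cdkn1a and Cdkn1b. Cdkn1a and Cdkn1b encode inhibitors of cell-cycle kinases. E2f3 was among the genes that fell (log2 fold change -0.28, limma adjusted p = 0.00633). The cyclins Ccne1 and Ccne2 fell 1.46-fold and 1.47-fold and the phosphatase Cdc25a 1.52-fold, while the transcription factor E2f2 rose 2.17-fold, from 245.2 ± 17.0 to 548.4 ± 90.8 (SD, n = 5; limma adjusted p = 2.96e-07). The mitosis list, read on 23 genes, had 20 lower, 3 uncalled and 0 higher in limma (median -0.41; 21 lower and 0 higher at an unadjusted p under 0.05). The motility receptor Hmmr fell 1.61-fold, the mitotic kinases Aurka and Aurkb 1.42-fold and 1.47-fold, and the anaphase activator Cdc20 1.46-fold. Whether the replication list differed from the mitosis list was not tested.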

How the data were processed

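Cultured splenic B cells of 2 genotypes were measured on 1-colour Affymetrix arrays, 5 per genotype, from 6 ug of total RNA each. The deposited values are signal intensity values on a linear scale, 1 per probe set and array, from the MAS5 algorithm according to the submitters' processing notes (version not given in the sources used here). Trimmed of 2% at both ends, the values averaged 250 on every array, so no further scaling was applied. Array data have no read depth, and the number of arrays limits the precision.

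The 45101 probe sets comprise 34945 with 1 gene symbol, 932 with several, 9160 unnamed here and 64 controls. Names were updated through gene IDs in a RefSeq table of GRCm38.p6, which held 34741 of the 1-symbol probe sets. Values were taken as log2(signal + 7.9), the pseudocount being the 20th percentile of all values, so fold changes of dim genes are understated. Probe sets with a mean under 25.1, the 40th percentile, were left out, and the brightest probe set was kept per gene. Genotype was fitted as a single term with lmFit and a trended eBayes of limma 3.58.1 in R 4.3.3. On simulated arrays with altered genes drawn from all tested genes, 26% of 1.2-fold and 48% of 1.4-fold changes were recovered. For 2-fold and 4-fold changes it was 84% and 96%, with 4 false calls. Each fold was given to only 50 of 12251 genes, while 47.2% of tested genes were called in the data. The median SD of log2 values was 0.167 in Irf4+/+ and 0.157 in Irf4-/- samples, and 0.0901 and 0.0964 for the listed replication genes. The recovered shares therefore need not hold for the listed replication genes, for which recovery was not simulated. A gene not called may still have changed by a small amount. All adjusted p-values for genes are limma's, adjusted by Benjamini-Hochberg over all tested genes. Array measures and within-array ratios were tested by exact two-sided permutation.

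The genes and lists were chosen with earlier results of these data known. All 36 genes are named, along with up to 4 genes of smallest p of the other replication list and of each further list, Gins4, Pold3, Rfc1, Rpa3 and Irf4. Uhrf1, Orc3, Orc4, Orc5, E2f1, E2f3, Cdkn1a, Cdkn1b, the ratios and the Mcm5 promoter were added after values were seen. Promoters are from RefSeq. The alternatives were other pseudocounts, filters, scalings, variance models, array weights, a replicate block, other choices of probe set, and each array left out.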

Additional observations from a re-analysis of the deposited data

Results flagged for a closer look

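In 6 of 82 groups of 5 arrays (the 36 genes, Irf4 and 4 array measures in each genotype), 1 array stood far from the other 4. Chance alone marks about 1 group in 20. Irf4-/- replicate 4 was the highest for Mcm4 (2653, others 2264 to 2361), for Mcm10 (624.3, others 563.8 to 577.8) and for Pold1 (1494, others 1193 to 1269). Irf4+/+ replicate 1 was the highest for Rfc4 (1722, others 1527 to 1576) and for Fen1 (7583, others 5141 to 5570.4). Irf4+/+ replicate 2 was the highest for Cdc7 (676.9, others 568.5 to 592.5). Without Irf4+/+ replicate 1 the log2 fold change of Fen1 was -0.08 (limma adjusted p = 0.549), and without Irf4-/- replicate 4 that of Pold1 was -0.11 (limma adjusted p = 0.227).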

How the results depend on the processing

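Of 36 genes, 30 kept their direction and call in all 22 alternatives in which they could be fitted. The exceptions were Gins1, Mcm10, Pold1, Pole2, Pcna and Fen1, as given in the report (Pole2 reached 0.18 with the mean of probe sets). The number called lower ran from 28 to 32 over the alternatives. It was 28 without probe sets of suffix _a, _s or _x, where Cdc6, Cdc7, Fen1, Mcm7 and Pole have none left. The number called higher was 1, or 2 with the mean of probe sets. The median log2 fold change of the 36 genes was -0.51 with median centring, -0.41 with the mean of probe sets and -0.43 without those suffixes. For the other replication genes these medians were -0.37, -0.29 and -0.31, and -0.35 to -0.30 with each array left out. For the deoxynucleotide supply list (with Slbp) the mean of probe sets gave -0.45 and the suffix rule -0.33, and for S phase entry the suffix rule gave -0.16. The cause was not tested. The Gapdh control ratio, Irf4-/- over Irf4+/+, ran from 0.992 to 1.02 with each array left out. Same-numbered samples did not deviate together (correlations from -0.04 to 0.05 over tested genes). No pairing by number was thus visible, which cannot show that the samples were handled without pairing. With the replicate number as a block 31 of the 36 genes were called lower and 1 higher, and 5716 in place of 5788 tested genes were called.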
